A study of Homo sapiens with 6 samples.

Results

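Antisense and LINC long noncoding RNAs were taken from a table of FPKM values per gene name as the rows whose name ends in -AS1, -AS2 or -AS3, or is LINC followed by digits, and whose mean over all 6 libraries was at least 1 FPKM. FPKM scales the fragments of a row by its transcript length and by the fragments mapped in the library. The names alone picked 1379 of the 55765 rows, and 162 of these reached the mean of 1 FPKM, 121 antisense rows and 41 LINC rows. The members were thus selected on their names and on the FPKM level over both groups, which is given as a description only. Total RNA came from SK-NEP-1, a human cell line given in the labels as Wilms tumor. The cells had received a small interfering RNA, either one directed at EHMT2 (siEHMT2, 3 libraries) or the control siNC (3 libraries). Dose and time of treatment are not given in the sources used here. Nor is it stated whether replicates were separate cultures, and the p-values cover only the spread between these libraries, which may be technical.

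A long noncoding RNA is a transcript that is spliced and processed much like a messenger RNA but has no established long reading frame. An antisense RNA is named after the gene it faces on the opposite strand: it can start next to that gene's promoter and run away from it, or run across the gene body. LINC names mark RNAs between genes, and several names of both kinds were later given to hosts of small nucleolar RNAs or to genes for small proteins. EHMT2 encodes a methyltransferase of lysine 9 on histone H3, a mark of repressed chromatin.

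Of the 162 names, 160 matched 1 RefSeq gene, 49 of them under another current symbol, and RefSeq types 147 as lncRNA and 10 as protein-coding. A promoter window of 300 bases (250 before and 50 after the transcription start, RefSeq, GRCh38.p14) was listed for 127. The windows below belong to rows whose values are described further on. NCBP2-AS2, PAXIP1-AS1 and BOLA3-AS1 were higher in every siEHMT2 library than in any siNC library. OIP5-AS1 and LINC00277 were lower in every one. BOLA3-AS1 was chosen once its values were known. Its siNC mean was 0.915 FPKM, so it passed the level rule through its siEHMT2 values. All the windows lie on the plus strand, at chr3:196942424-196942723, chr7:155003183-155003482, chr2:74147731-74148030, chr15:41283740-41284039 and chr15:69080600-69080899. Capitals mark the CG dinucleotides, the sites of DNA methylation.
NCBP2-AS2: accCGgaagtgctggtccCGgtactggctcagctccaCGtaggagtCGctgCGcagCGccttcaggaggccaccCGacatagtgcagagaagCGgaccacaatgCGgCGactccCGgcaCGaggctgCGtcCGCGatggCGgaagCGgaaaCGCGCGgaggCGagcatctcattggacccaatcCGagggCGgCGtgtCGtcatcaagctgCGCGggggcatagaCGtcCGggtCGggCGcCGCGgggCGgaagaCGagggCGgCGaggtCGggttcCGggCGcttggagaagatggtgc
PAXIP1-AS1: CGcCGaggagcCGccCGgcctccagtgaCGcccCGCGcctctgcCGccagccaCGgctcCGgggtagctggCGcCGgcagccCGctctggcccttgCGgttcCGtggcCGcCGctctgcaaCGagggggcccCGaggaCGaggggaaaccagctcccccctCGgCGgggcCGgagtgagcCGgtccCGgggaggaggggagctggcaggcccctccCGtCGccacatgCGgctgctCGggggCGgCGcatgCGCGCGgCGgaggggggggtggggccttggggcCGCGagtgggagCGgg
BOLA3-AS1: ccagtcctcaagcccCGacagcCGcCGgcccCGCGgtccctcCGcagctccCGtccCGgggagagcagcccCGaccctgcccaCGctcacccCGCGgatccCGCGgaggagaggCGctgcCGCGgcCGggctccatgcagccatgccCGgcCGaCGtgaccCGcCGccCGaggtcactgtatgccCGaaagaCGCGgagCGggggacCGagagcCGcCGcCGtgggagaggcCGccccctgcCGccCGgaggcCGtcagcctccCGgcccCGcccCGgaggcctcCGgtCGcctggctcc
OIP5-AS1: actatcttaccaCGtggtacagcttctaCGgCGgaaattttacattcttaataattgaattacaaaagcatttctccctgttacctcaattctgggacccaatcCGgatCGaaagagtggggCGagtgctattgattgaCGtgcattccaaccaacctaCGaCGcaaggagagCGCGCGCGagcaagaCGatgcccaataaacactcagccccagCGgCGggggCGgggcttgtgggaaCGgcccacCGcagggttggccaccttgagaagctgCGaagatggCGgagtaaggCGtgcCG
LINC00277: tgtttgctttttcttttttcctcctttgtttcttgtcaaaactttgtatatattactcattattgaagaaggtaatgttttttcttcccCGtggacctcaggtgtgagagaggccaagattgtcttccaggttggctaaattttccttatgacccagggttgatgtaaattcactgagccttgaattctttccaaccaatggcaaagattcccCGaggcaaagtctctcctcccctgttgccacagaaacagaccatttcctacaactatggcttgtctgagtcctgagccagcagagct
The window of NCBP2-AS2 holds 40 CG dinucleotides, that of PAXIP1-AS1 38, that of BOLA3-AS1 41 and that of OIP5-AS1 23, while that of LINC00277 holds 2. The median was 23 over the 127 windows, 27 over the 9135 windows of all tested rows and 14 over all 27305 windows, and it was 22 for the 101 windows of RNAs with a positive fold change and 23.5 for the 26 with a negative one. NCBP2-AS2 and NCBP2 start 146 bases apart and BOLA3-AS1 and BOLA3 69 bases apart, each pair running in opposite directions, so that both starts of a pair lie within the windows printed. In all, 4 short motifs were looked for on both strands. The GC box (GGGCGG) was in 56.7% of the 127 windows and in 72.2% of the windows of tested rows, the CCAAT box (CCAAT) in 43.3% and 37.4%, the core of ETS factor sites (CCGGAAG) in 27.6% and 21.1%, and the TATA box (TATAAA) in 4.72% and 5.02%. Of the windows printed, LINC00277 has the CCAAT box and no other of these motifs, and NCBP2-AS2 has all but the TATA box.

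EHMT2 was at 7.61, 8.26 and 16.2 FPKM in the siEHMT2 libraries and at 27.5, 27.2 and 22.7 FPKM in the siNC libraries. The groups do not overlap, and the log2 fold change was −1.27 ± 0.24 (SE, limma adjusted p = 0.0609) over all libraries and −1.58 (adjusted p = 0.0163) without siEHMT2 replicate 3, where EHMT2 was least reduced. Of 10 nephron progenitor and Wilms tumor markers 5 reached a mean of 1 FPKM, with WT1 at 1.34 FPKM in siEHMT2 and 1.04 in siNC and SIX2 at 0.180 and 0.148. Of 10 Ewing sarcoma markers 9 did, with NKX2-2 at 120.4 and 125.6 FPKM, and none of the markers of kidney tubule or of leukocytes did. The sum of the Ewing sarcoma markers was 461 to 522 FPKM in siEHMT2 libraries and 635 to 680 FPKM in siNC libraries. Most of that gap was CCND1, at 222 and 374 FPKM in mean. Without it the means summed to 269 and 280.1 FPKM, with 3 of the 10 markers (PRKCB, CD99 and LOXHD1) higher in siEHMT2 and 7 lower. The depth of the libraries is unknown, because the values are FPKM. Whether the counting used strand is not stated, so reads of an antisense RNA and of a gene it overlaps may not have been told apart.

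Most of the 162 RNAs had a higher level in siEHMT2 cells, by small amounts, and none passed the test. The log2 fold change on log2(FPKM + 1) was above 0 for 126 of them and below 0 for 36. That is 77.8%, beside 52.4% of all 12859 rows at or over 1 FPKM, and the median was 0.15 beside 0.01. Values ran from −0.71 for OIP5-AS1 to 0.76 for NCBP2-AS2. With limma on all rows, 0 of the 162 reached an adjusted p under 0.05, where 0.552% of all rows did (0.342% higher and 0.21% lower), and the smallest adjusted p was 0.0554. At an unadjusted p under 0.05, 24 were higher in siEHMT2 (14.8%, beside 10.7% of all rows) and 4 were lower (2.47%, beside 8.03%). The groups did not overlap for 31 RNAs that were higher (19.1%, beside 14.6% of all rows) and 5 that were lower (3.09%, beside 11.7%). Some RNAs in both counts of higher ones reached the mean of 1 FPKM through their siEHMT2 values. TOLLIP-AS1 and BOLA3-AS1 are among them, with siNC means of 0.765 and 0.915 FPKM. No RNA entered through its siNC values alone, so these counts are not free of the level rule.

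**Figure D1:**
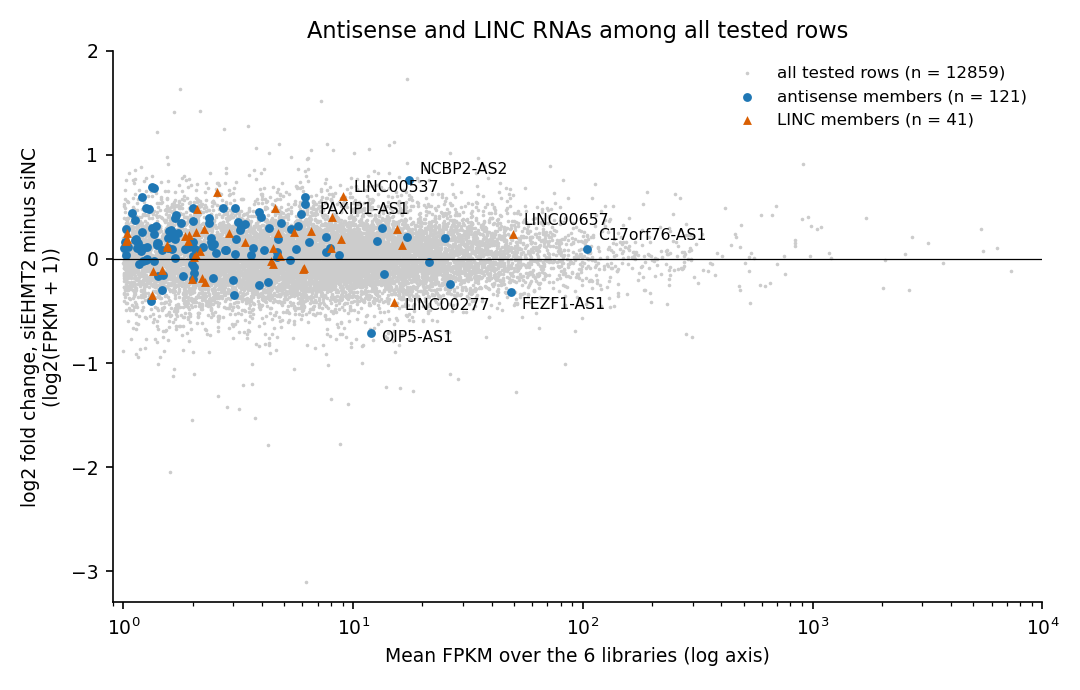
Log2 fold change (siEHMT2 minus siNC, on log2(FPKM + 1)) against the mean FPKM over the 6 libraries on a log axis, for all 12859 tested rows (grey) and the 121 antisense and 41 LINC RNAs (coloured). Of the coloured points 126 lie above 0 and 36 below, within the spread of the grey ones.

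The antisense rows and the LINC rows gave like counts: 96 of 121 antisense RNAs were higher with a median of 0.15, and 30 of 41 LINC RNAs with a median of 0.16. Among RNAs with a mean of 1 to 2 FPKM, 55 of 70 were higher (78.6%, beside 52.7% of all rows at that level). From 2 to 5 FPKM it was 45 of 57 (78.9%, beside 49.3%), and from 5 to 10 FPKM 17 of 20 (85.0%, beside 50.4%). At 10 FPKM or more it was 9 of 15 (60%, beside 55.7%). The mean of both groups chose the rows, and it bears on the count. In 17 RNAs the siEHMT2 mean was at least 1 FPKM and the siNC mean was not, in none the reverse, and 145 reached 1 FPKM in both groups. Those 17 have the higher siEHMT2 mean by this definition alone. The like count over all rows was not made, so it is not known whether it is particular to these RNAs. Among 144 other rows that GENCODE types as long noncoding and whose names fall outside the rule, 92 were higher (63.9%, median 0.08). Among 10890 protein-coding rows it was 51.6% (median 0.01).

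The median of the 162 RNAs moved by library. As a deviation from each row's mean over all 6 libraries, on log2(FPKM + 1), it was 0.02, 0.08 and 0.13 in siEHMT2 replicates 1, 2 and 3 and −0.02, −0.06 and −0.12 in siNC replicates 1, 2 and 3. All siEHMT2 libraries lay above all siNC libraries, and siEHMT2 replicate 1 and siNC replicate 1 lay close together. Over all tested rows the same median stayed between −0.01 and 0.03. Of the siEHMT2 libraries, replicate 3 had the highest median and also the most EHMT2. Summed, the 162 RNAs took 822, 856 and 911 FPKM in siEHMT2 libraries and 803, 784 and 760 FPKM in siNC libraries.

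**Figure D2:**
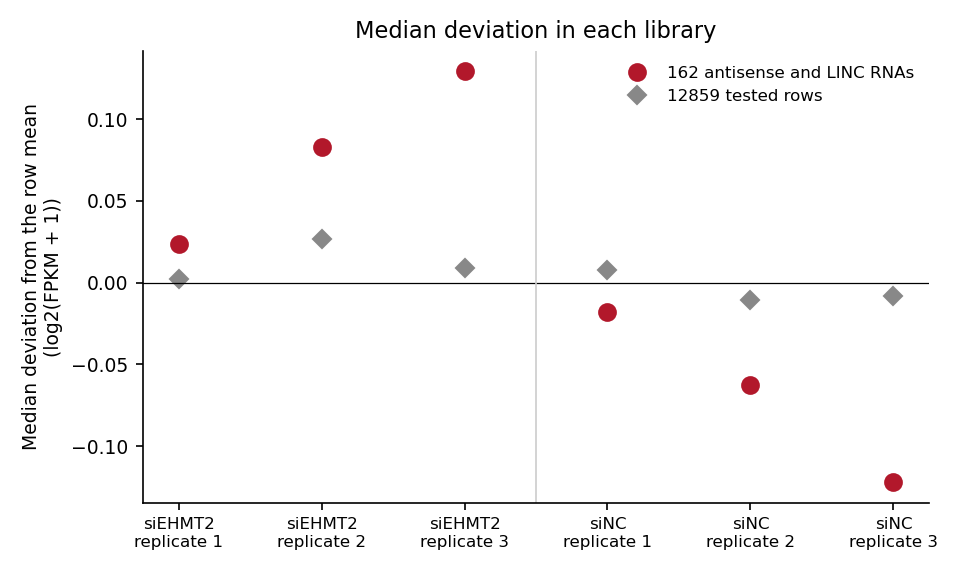
Median deviation from the row mean on log2(FPKM + 1) in each library, for the 162 antisense and LINC RNAs (circles) and all 12859 tested rows (diamonds). The 3 siEHMT2 libraries lie above the 3 siNC libraries for the RNAs, with the widest gap between the libraries numbered 3.

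Leaving out the libraries numbered 3 gave smaller shares. Without siEHMT2 replicate 3 the share higher was 73.5%, without siNC replicate 3 it was 71.0%, and without both it was 64.8%, with a median of 0.09, beside 52.6% of all rows. In siEHMT2 replicate 3 the deviation of a row was also related to the GC content of its transcripts (Spearman rho 0.573 over rows, and −0.339 to 0.111 in the other libraries; rows of a library are not independent of each other). The 162 RNAs had a median transcript GC content of 51.3% beside 50.2% over all tested rows. Across the 157 with a value the rho of fold change and GC content was 0.182, beside 0.387 over all tested rows. With a GC correction per library, 76.4% were higher and the median was 0.14.

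Among the rows that were higher, NCBP2-AS2 had the largest difference on log2(FPKM + 1). By the ratio of means (1.73) it came after several RNAs of lower level, among them HOXB-AS3 (2.59) and TOLLIP-AS1 (2.16). It starts next to NCBP2, a subunit of the nuclear cap-binding complex, and RefSeq lists it as the protein-coding gene NCBP2AS2. It was at 22.3, 24.6 and 19.7 FPKM in siEHMT2 libraries and at 12.7, 10.7 and 15.0 FPKM in siNC libraries. The groups are well apart, with siNC replicate 3 the nearest of the control libraries. The log2 fold change was 0.76 ± 0.14 (limma adjusted p = 0.0554), and without siEHMT2 replicate 3 it was 0.83 (adjusted p = 0.0482). In that fit 0.669% of all rows were called in each direction. Under the other ways of processing tried, the limma adjusted p of NCBP2-AS2 ran from 0.000536 to 0.256. NCBP2 itself was at 20.003, 20.7 and 19.0 FPKM against 22.1, 19.8 and 22.7 FPKM in siNC, with overlapping groups (−0.10 ± 0.10, adjusted p = 0.589). NCBP2-AS1, a further antisense RNA of that gene, was at 1.08 ± 0.113 FPKM and 0.931 ± 0.110 FPKM in siNC (SD, n = 3).

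PAXIP1-AS1 was at 7.61, 8.12 and 6.77 FPKM in siEHMT2 libraries and at 4.68, 4.92 and 5.04 FPKM in siNC libraries. The siNC libraries are close together and every siEHMT2 library is above them (log2 fold change 0.53 ± 0.11, limma adjusted p = 0.0654). Without siEHMT2 replicate 3 the adjusted p was 0.0399, and under the other ways of processing tried the limma adjusted p ran from 0.000783 to 0.272. PAXIP1, which acts in the DNA damage response and with histone H3 lysine 4 methyltransferases, was at 8.76, 8.57 and 7.97 FPKM against 8.28, 8.48 and 8.48 FPKM in siNC. PAXIP1-AS2, a further antisense RNA of the gene, lay on the other side, at 1.78, 1.75 and 1.45 FPKM against 1.98, 2.08 and 1.86 FPKM in siNC, without overlap (−0.16 ± 0.12, limma adjusted p = 0.502).

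Other antisense RNAs with large differences and no overlap of the groups were also higher in siEHMT2, and none passed. TOLLIP-AS1 was at 1.85, 1.43 and 1.69 FPKM against 0.749, 0.532 and 1.01 FPKM in siNC (0.60 ± 0.15, limma adjusted p = 0.0967). Its siNC mean was 0.765 FPKM, so it passed the level rule through its siEHMT2 values. TOLLIP, a regulator of Toll-like receptor signalling, was at 5.92 ± 0.677 and 6.52 ± 0.473 FPKM. UBL7-AS1 was at 3.39, 4.87 and 3.06 FPKM against 2.39, 2.64 and 2.05 FPKM in siNC (0.49 ± 0.16, adjusted p = 0.156). UBL7, a ubiquitin-like protein gene, was at 36.8 ± 1.75 and 33.7 ± 0.401 FPKM, also higher without overlap of the groups. The difference of UBL7 was smaller on the log2 scale (0.12 ± 0.09, limma adjusted p = 0.483). BOLA3-AS1, named here once its values were known, was at 1.48, 1.59 and 1.94 FPKM against 1.06, 0.826 and 0.862 FPKM in siNC (0.48 ± 0.13, adjusted p = 0.117). Its siNC mean was 0.915 FPKM, so it too passed the level rule through its siEHMT2 values. BOLA3, which acts in building iron-sulfur clusters of mitochondria, was at 4.08 ± 0.343 and 3.32 ± 0.8001 FPKM.

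**Figure D3:**
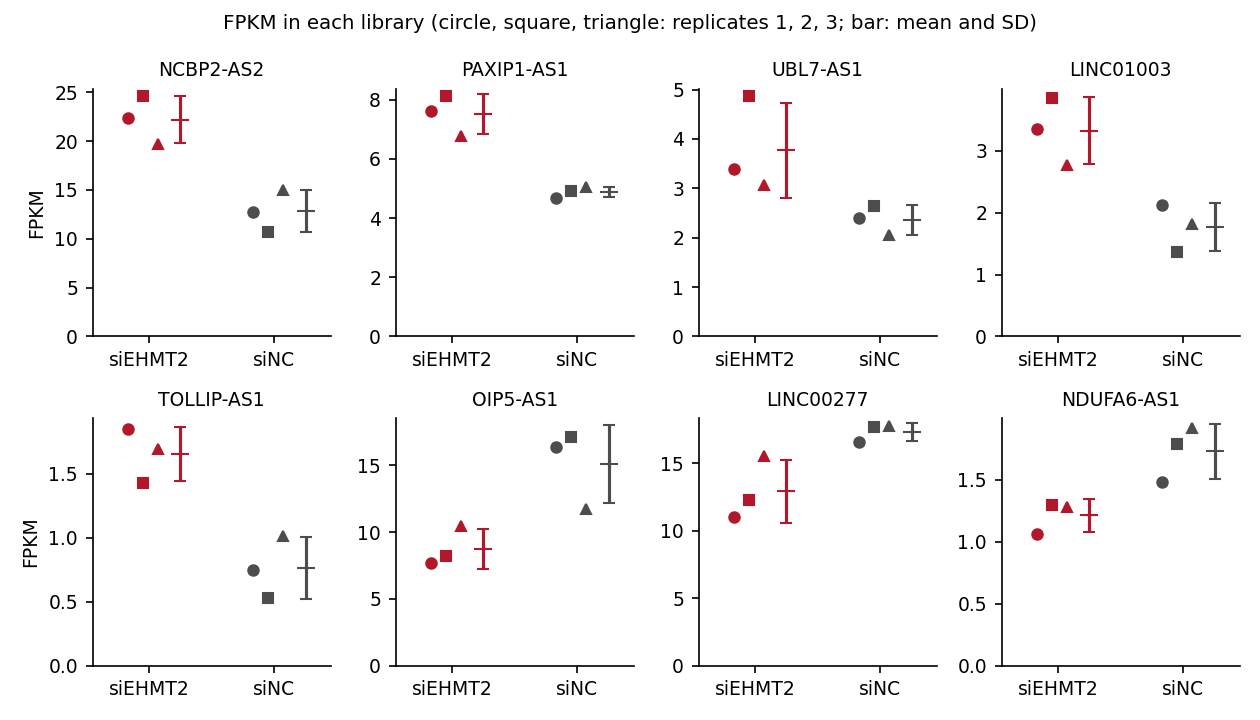
FPKM in each library (circle, square and triangle for replicates 1, 2 and 3) with the mean and SD at the side, siEHMT2 left of siNC, for 8 RNAs whose groups do not overlap. NCBP2-AS2, PAXIP1-AS1, UBL7-AS1, LINC01003 and TOLLIP-AS1 are higher in siEHMT2 libraries, and OIP5-AS1, LINC00277 and NDUFA6-AS1 are lower.

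Of the LINC RNAs, LINC01003 had the largest difference, at 3.35, 3.86 and 2.77 FPKM in siEHMT2 libraries and 2.13, 1.37 and 1.81 FPKM in siNC libraries (0.65 ± 0.15, limma adjusted p = 0.0855). LINC00537 was at 10.04, 10.6 and 12.2 FPKM against 8.67, 8.45 and 4.29 FPKM in siNC. Its siNC libraries were spread, with replicate 3 at the bottom (0.60 ± 0.22, adjusted p = 0.201), and without that library the log2 fold change was 0.32. LINC00938, named likewise once its values were known, was at 5.50, 5.23 and 5.76 FPKM against 4.13, 3.46 and 3.36 FPKM in siNC (0.49 ± 0.11, adjusted p = 0.0824).

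OIP5-AS1 was the RNA with the largest difference in the other direction. It is known as the human form of the conserved RNA cyrano, which in mouse and human cells lowers the microRNA miR-7. It was at 7.65, 8.17 and 10.4 FPKM in siEHMT2 libraries and at 16.4, 17.1 and 11.7 FPKM in siNC libraries. The groups are apart, with the libraries numbered 3 nearest to each other. The log2 fold change was −0.71 ± 0.16 (limma adjusted p = 0.0822), and it was −0.99 (adjusted p = 0.0038) without both of these libraries. In that fit 8.09% of all rows were called higher and 6.61% lower. Under the other ways of processing tried, the limma adjusted p of OIP5-AS1 ran from 0.000584 to 0.291. OIP5, a kinetochore gene whose start lies 48601 bases away, was at 17.1, 16.8 and 16.2 FPKM against 17.9, 14.4 and 17.3 FPKM in siNC (0.02 ± 0.11, adjusted p = 0.950).

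LINC00277 is listed by RefSeq as EWSAT1, Ewing sarcoma associated transcript 1. It was at 10.98, 12.2 and 15.5 FPKM in siEHMT2 libraries and at 16.6, 17.6 and 17.7 FPKM in siNC libraries. The siNC libraries are close together and siEHMT2 replicate 3 is the nearest to them (−0.41 ± 0.13, limma adjusted p = 0.148). Without siEHMT2 replicate 3 the log2 fold change was −0.54 (adjusted p = 0.0482). Under the other ways of processing tried, the limma adjusted p of LINC00277 ran from 0.00362 to 0.371. NDUFA6-AS1, which starts 161 bases from NDUFA6, a gene of respiratory complex I, was at 1.06, 1.30 and 1.28 FPKM against 1.48, 1.79 and 1.92 FPKM in siNC (−0.30 ± 0.13, adjusted p = 0.255). LINC00925, the host of a miR-9 hairpin by its RefSeq name MIR9-3HG, was at 1.58, 1.89 and 1.88 FPKM against 2.29, 2.07 and 2.17 FPKM in siNC (−0.19 ± 0.12, adjusted p = 0.413).

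Of the 15 RNAs with a mean of 10 FPKM or more, LINC00657 and NCBP2-AS2 were higher without overlap of the groups. OIP5-AS1 and LINC00277 were lower without overlap, while the others overlapped. That is 13.3% in each direction, beside 18.04% of all rows at that level higher without overlap and 11.41% lower. C17orf76-AS1, the snoRNA host SNHG29 in RefSeq, was at 103, 100.1 and 122 FPKM against 103, 95.9 and 104 FPKM in siNC (0.10 ± 0.11, limma adjusted p = 0.658). LINC00657 is NORAD, a cytoplasmic RNA that binds Pumilio proteins and guards chromosome stability. It was at 53.1, 56.9 and 51.9 FPKM against 46.1, 48.0 and 42.2 FPKM in siNC, without overlap (0.24 ± 0.09, adjusted p = 0.215). FEZF1-AS1 was at 36.1, 35.5 and 59.3 FPKM against 56.9, 56.6 and 46.3 FPKM in siNC. Its siEHMT2 replicate 3 lay above the other libraries, so the groups overlap (−0.32 ± 0.19, adjusted p = 0.412). The log2 fold change was −0.55 (limma adjusted p = 0.0702) without that library and −0.65 (adjusted p = 0.0081) without both libraries numbered 3. Under the other ways of processing tried, the limma adjusted p of FEZF1-AS1 ran from 0.00394 to 0.720. AGAP2-AS1 was at 26.6 ± 1.85 and 23.4 ± 6.36 FPKM, FGD5-AS1 at 21.2 ± 2.31 and 21.6 ± 0.644 FPKM, and ITGB2-AS1 at 18.7 ± 4.89 and 15.7 ± 0.977 FPKM, each with overlapping groups. HNRNPU-AS1 was at 24.3 ± 4.96 and 28.6 ± 1.02 FPKM. RefSeq now holds that name under HNRNPU itself, whose row was at 112 ± 5.42 and 114 ± 5.75 FPKM.

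Of the RNAs 3 are snoRNA hosts by their RefSeq names, and all were higher in mean. Beside SNHG29, LINC00338 (SNHG20) was at 8.99, 9.13 and 9.79 FPKM against 6.99, 6.31 and 7.16 FPKM in siNC (0.40 ± 0.10, limma adjusted p = 0.0967). LINC00888 (SNHG33) was at 3.16, 2.90 and 1.85 FPKM against 1.48, 1.73 and 1.48 FPKM in siNC (0.48 ± 0.16, adjusted p = 0.163). The groups of both do not overlap. With only 3 rows these counts are a description, beside 52.4% of all rows higher and 14.6% higher without overlap.

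Of the 10 rows that RefSeq types as protein-coding, 8 were higher and 2 lower, with a median of 0.17, beside a median of 0.15 for the 147 typed as lncRNA. The share higher was 80% and 78.9% in these classes, beside 52.4% of all rows. After NCBP2-AS2, MMP24-AS1 (MMP24OS) was at 3.66 ± 0.293 and 2.65 ± 0.250 FPKM (0.35 ± 0.12, limma adjusted p = 0.157), without overlap. The others overlapped between groups, so 20% of the 10 were higher without overlap, beside 14.6% of all rows. LINC00493 (SMIM26), a small mitochondrial protein gene, was at 17.3 ± 4.04 and 13.9 ± 1.92 FPKM. LINC00998 (SMIM30) was at 17.1 ± 2.26 and 15.4 ± 1.12 FPKM. LINC00116 (MTLN, mitoregulin of the mitochondrial inner membrane) was at 3.68 ± 0.979 and 3.12 ± 0.300 FPKM. LINC00984 (INAFM2), LINC00085 (SPACA6) and RPA3-AS1 (UMAD1) were higher in mean, and LINC00094 (BRD3OS) and HNRNPU-AS1 were lower. LINC00085 passed the level rule through its siEHMT2 values, its siNC mean being 0.913 FPKM.

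The HOX clusters, which pattern the body axis, gave 5 RNAs, all with a positive fold change (median 0.45), HOXB-AS3 having passed the level rule through its siEHMT2 values. Over all rows 52.4% had a positive fold change. The groups of 1 of the 5 did not overlap (20%, beside 14.6% of all rows higher without overlap). HOXC-AS3 was at 3.10, 3.42 and 3.42 FPKM against 2.504, 1.88 and 1.88 FPKM in siNC, without overlap (0.49 ± 0.13, limma adjusted p = 0.103). HOXB-AS3 was at 0.420, 2.62 and 2.74 FPKM against 0.712, 1.41 and 0.110 FPKM in siNC, so that siEHMT2 replicate 1 lay below 2 of the siNC libraries (0.69 ± 0.40, adjusted p = 0.389). HOXC-AS1 was at 1.01, 3.13 and 4.17 FPKM against 3.01, 2.23 and 0.624 FPKM in siNC, and without siNC replicate 3 its fold change was −0.04. HOXC-AS2 was at 4.69 ± 1.67 and 3.09 ± 0.776 FPKM, and HOXD-AS2 at 7.79 ± 0.176 and 7.42 ± 0.975 FPKM.

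Further RNAs with a described role in cell growth or cancer gave smaller differences, and none passed. FGF14-AS2 was at 2.11, 2.34 and 1.87 FPKM against 1.36, 1.25 and 1.75 FPKM in siNC, without overlap (0.34 ± 0.13, limma adjusted p = 0.218). FOXD2-AS1 was at 3.70 ± 0.535 and 2.81 ± 0.606 FPKM, TMPO-AS1 at 4.25 ± 0.104 and 3.94 ± 0.261 FPKM, and PCBP1-AS1 at 2.58 ± 0.147 and 2.29 ± 0.149 FPKM. LINC00665 was at 4.65 ± 0.246 and 4.27 ± 0.508 FPKM and MCM3AP-AS1 at 2.04 ± 0.355 and 1.97 ± 0.230 FPKM. The groups of these 5 overlap.

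Set beside the genes they are named after, the antisense RNAs had the same sign as their partner in 58 pairs and the opposite sign in 46. By RefSeq not all of these pairs are antisense. HNRNPU-AS1 is held under its partner HNRNPU itself, and AMER2-AS1 lies on the same strand as AMER2. Of the 121, 104 had a partner gene that was itself tested (101 different genes), 11 a partner below 1 FPKM and 6 none in the table. Of the 101 partner genes 49 were higher in siEHMT2 and 52 lower, with a median of −0.0027, and 0 passed the threshold (limma smallest adjusted p = 0.0609; 8 higher and 16 lower at an unadjusted p under 0.05, which is 7.92% and 15.8%, beside 10.7% and 8.03% of all rows). In 43 pairs both were higher, in 38 the antisense RNA was higher and the partner lower, in 15 both were lower, and in 8 the antisense RNA was lower and the partner higher. The partner was the more abundant by FPKM in 89 of 104 pairs.

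**Figure D4:**
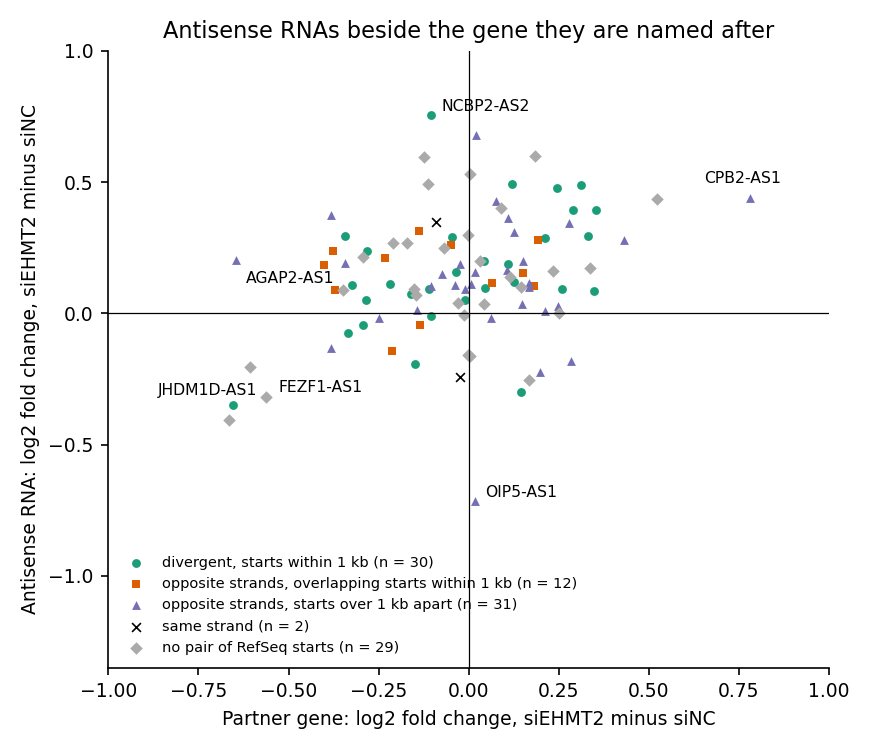
Log2 fold change (siEHMT2 minus siNC) of each antisense RNA against that of the gene it is named after, for 104 pairs, by the arrangement of their RefSeq starts. Points spread over both sides of 0 for the partner genes (x axis) and lie mostly above 0 for the antisense RNAs (y axis).

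RefSeq gave both starts for 84 pairs, all but 2 of them on opposite strands, and the antisense RNAs were mostly higher in each of 3 arrangements of these. In 31 the starts lie within 1 kb and run apart, as at a shared promoter: 25 of these antisense RNAs were higher, with a median of 0.12, and 14 of the 30 partners tested were, with a median of −0.02. In 12 the starts lie within 1 kb and the transcripts run across each other: 10 antisense RNAs were higher (median 0.17) and 4 of 12 partners (median −0.14). In 39 the starts are further apart on opposite strands: 32 antisense RNAs were higher (median 0.14) and 19 of 30 partners (median 0.04). The difference between these arrangements was not tested.

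In a few pairs the partner was lower without overlap and the antisense RNA had a negative fold change with overlap, and none passed. These and the pairs that follow were chosen after their values were seen, apart from those of FEZF1-AS1, AGAP2-AS1 and ITGB2-AS1. JHDM1D, a demethylase gene for histone H3 lysines 9 and 27, was at 3.25, 3.69 and 3.60 FPKM against 6.67, 7.01 and 4.83 FPKM in siNC (−0.65 ± 0.14, limma adjusted p = 0.0727). JHDM1D-AS1, which starts 278 bases away in the other direction, was at 2.38, 1.97 and 3.36 FPKM against 3.61, 3.58 and 3.29 FPKM in siNC (−0.35 ± 0.15, adjusted p = 0.266). Its groups overlap through the libraries numbered 3 alone. FEZF1, a zinc finger repressor gene of the developing forebrain, was at 29.6, 27.5 and 37.1 FPKM against 46.9, 45.0 and 47.6 FPKM in siNC (−0.56 ± 0.12, adjusted p = 0.0725), without the overlap seen in FEZF1-AS1. FZD10, a WNT receptor gene, was at 2.45, 2.78 and 2.51 FPKM against 3.96, 4.54 and 4.89 FPKM in siNC (−0.61 ± 0.12, adjusted p = 0.0609), while FZD10-AS1 was at 1.66, 2.61 and 3.90 FPKM against 3.69, 3.96 and 2.09 FPKM in siNC, with overlapping groups (−0.20 ± 0.25, adjusted p = 0.699).

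Other pairs went apart or were higher together. AGAP2, a GTPase-activating protein gene, was at 0.781, 0.939 and 1.60 FPKM against 2.42, 2.68 and 1.73 FPKM in siNC (−0.65 ± 0.18, limma adjusted p = 0.122). AGAP2-AS1 was at 27.9, 27.5 and 24.5 FPKM against 20.1, 19.4 and 30.8 FPKM in siNC, so only siNC replicate 3 overlaps the siEHMT2 group (0.20 ± 0.17, adjusted p = 0.548). Without that library the log2 fold change was 0.41 (limma adjusted p = 0.107), and without both libraries numbered 3 it was 0.47 (adjusted p = 0.0165). Under the other ways of processing tried, the limma adjusted p of AGAP2-AS1 reached 0.860. ITGB2, an integrin beta subunit gene, was at 38.1 ± 1.97 and 47.0 ± 4.92 FPKM, without overlap (−0.29 ± 0.10, adjusted p = 0.189). ASB16 was at 1.75, 2.18 and 2.37 FPKM against 1.09, 1.19 and 1.18 FPKM in siNC (0.52 ± 0.13, adjusted p = 0.0961). ASB16-AS1 was at 7.10, 7.86 and 5.86 FPKM against 5.10, 5.17 and 4.31 FPKM in siNC, likewise without overlap (0.43 ± 0.13, adjusted p = 0.134).

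Some noncoding transcripts are released by the Integrator complex and by the factors that end and cleave transcripts. Some are degraded by the nuclear RNA exosome or silenced in places by the HUSH complex. Whether the RNAs above are among them was not tested. In these lists limma called 0 genes over all libraries, and at an unadjusted p under 0.05 the counts below stand beside 10.7% of all rows higher and 8.03% lower. Without siEHMT2 replicate 3, EXOSC6 (0.67, limma adjusted p = 0.0483) and MORC2 (−0.61, adjusted p = 0.0482) passed, where 0.669% of all rows were called in each direction. Under other ways of processing tried, their limma adjusted p reached 0.284 and 0.364. Of 20 exosome and cofactor genes 9 were higher and 11 lower (median −0.02; 3 and 1 at an unadjusted p under 0.05). EXOSC6, a core subunit, was at 19.6, 24.7 and 17.2 FPKM against 13.5, 13.9 and 13.2 FPKM in siNC (0.55 ± 0.13, adjusted p = 0.0911). ZCCHC7, of the adaptor complex TRAMP, was at 3.27 ± 0.316 and 4.43 ± 0.315 FPKM (−0.35 ± 0.11, adjusted p = 0.156). Of 20 genes of termination and cleavage 5 were higher and 15 lower (median −0.08; 0 and 1 at an unadjusted p under 0.05). PAPOLA, the main nuclear poly(A) polymerase, was at 14.2, 13.9 and 12.7 FPKM against 18.9, 20.7 and 17.6 FPKM in siNC (−0.46 ± 0.10, adjusted p = 0.0752), and CPSF1 at 68.7 ± 2.07 and 60.2 ± 0.295 FPKM. Of 7 HUSH genes 1 was higher and 6 lower (median −0.18; 0 and 2 at an unadjusted p under 0.05), with MORC2 at 13.1 ± 2.44 and 18.4 ± 1.63 FPKM and FAM208A at 7.03 ± 0.672 and 8.90 ± 0.937 FPKM. Of 11 Integrator genes 5 were higher and 6 lower (median −0.02; 2 and 0 at an unadjusted p under 0.05), with INTS5 at 15.2 ± 0.377 and 12.3 ± 0.570 FPKM and INTS1 at 31.7 ± 2.62 and 26.0 ± 1.11 FPKM.

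At the edge of the level rule, the last rows inside were NCBP2-AS1, SH3BP5-AS1 (1.13 ± 0.274 and 0.900 ± 0.237 FPKM) and UBAC2-AS1 (1.23 ± 0.225 and 0.824 ± 0.158 FPKM). The first outside were SPAG5-AS1 (0.885 ± 0.242 and 1.01 ± 0.180 FPKM), SDCBP2-AS1 (1.09 ± 0.0268 and 0.844 ± 0.0927 FPKM) and HOXD-AS1 (1.11 ± 0.280 and 0.872 ± 0.109 FPKM). Under the ways of processing tried, the share of the RNAs with a positive fold change ran from 64.8% to 80.2%, where the share over all rows was 45.7% to 53.9%.

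**Figure D5:**
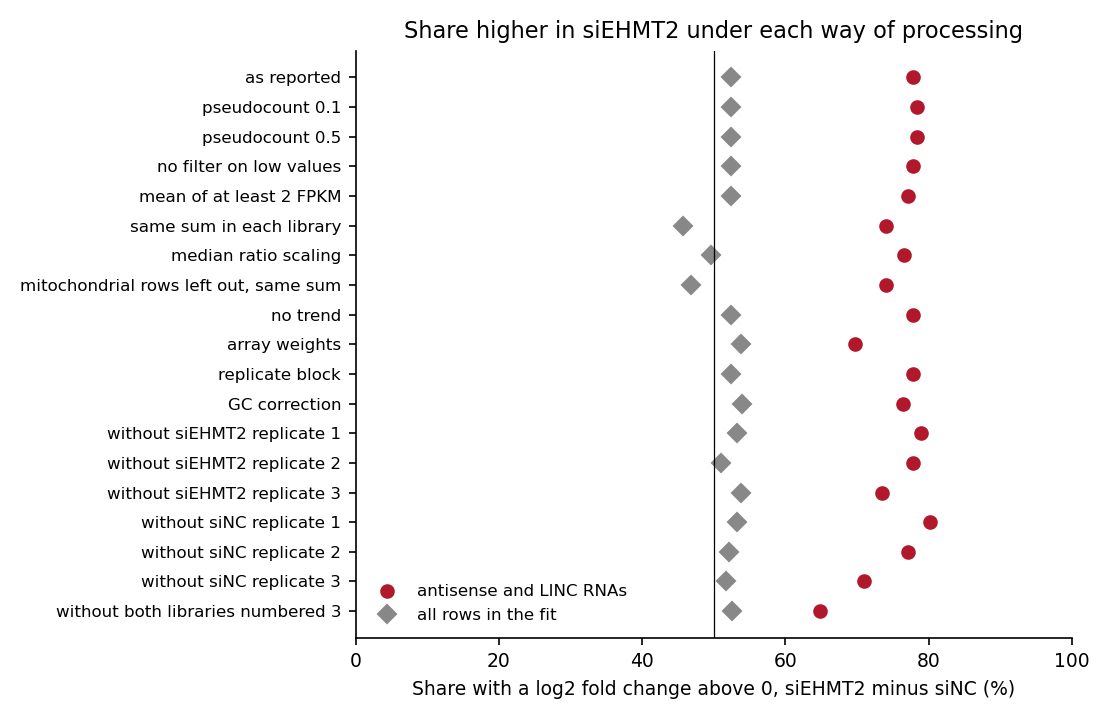
Share of rows with a log2 fold change above 0 (siEHMT2 minus siNC) under each way of processing, for the antisense and LINC RNAs (circles) and all rows in the same fit (diamonds). The circles lie between 64.8% and 80.2%, the lowest without both libraries numbered 3, and the diamonds between 45.7% and 53.9%.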

How the data were processed

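The authors deposited 1 table of FPKM values, with a row per gene name and a column per library. Software and build are listed without roles in the submitters' processing notes: hg19 as the build, and HISAT2 2.2.1, StringTie 2.2.0, SAMtools 1.4.1 and fastp as tools. Annotation and strand setting are not given in the sources used here. Groups and replicate numbers came from the sample titles, which all name SK-NEP-1, while the cell line field numbers the line upward from sample to sample.

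The test was limma 3.58.1 (R 4.3.3) on log2(FPKM + 1), with no covariate, a trend of variance on level, and two-sided p-values adjusted by Benjamini-Hochberg over the 12859 rows at or over 1 FPKM (threshold 0.05). The pseudocount of 1 makes fold changes of low rows smaller than their ratios. An exact permutation of 3 against 3 libraries cannot go below p = 0.1, so none was run.

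RefSeq (GRCh38.p14) and GENCODE release 29 gave symbols, types, promoters and GC content, matched by name. Their build differs from that of the files. Named rows were EHMT2, the smallest p and largest differences in each direction, the most abundant, those at the level limit, a list with described roles, partner genes, and 2 per gene list. Rows named for their RefSeq class and rows that the text says were named once their values were known came in addition. A row that the rule names is not reported here. The members and lists were chosen with earlier results of these data known. Alternatives were a smaller pseudocount, another level filter or none, 3 other scalings, a constant variance, weighted libraries, a block for the replicate number, a GC correction (loess, span 0.5) and libraries left out. Figures used Python 3.11.15.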

Additional observations from a re-analysis of the deposited data

How the results depend on the processing

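All counts of RNAs and partner genes past the threshold were 0 over all libraries and moved with the library weights and the libraries kept. With array weights 39 RNAs were called higher and 7 lower (24.1% and 4.32%), and 17 partner genes higher and 22 lower (16.8% and 21.8%), beside 16.9% and 12.6% of all rows. Without both libraries numbered 3 it was 17 and 7 RNAs (10.5% and 4.32%), and 7 and 16 partner genes (6.93% and 15.8%), beside 8.09% and 6.61% of all rows. With the GC correction it was 1 RNA higher (0.637%) and 2 partner genes lower (1.98%), beside 0.375% of all rows higher and 0.460% lower. With a minimum mean of 2 FPKM 1 of 92 RNAs was called higher (1.09%), beside 0.635% of all rows. Of these 92 RNAs 71 had a positive fold change (77.2%, beside 52.4% of all rows in that fit). With 1 library left out, 0 to 2 RNAs were called higher and 0 to 1 lower, and 0 to 1 partner genes in each direction, the calls coming without siEHMT2 replicate 3, where 0.669% of all rows were called in each direction. The median log2 fold change of the RNAs was 0.21 with a pseudocount of 0.1 and 0.0920 without both libraries numbered 3. EHMT2 passed with the GC correction (−1.36), with array weights (−1.56) and without both libraries numbered 3 (−1.67), and ran from −1.58 to −1.08 with 1 library left out.

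Signs turned for named rows with small differences and for HOXC-AS1. With array weights FGD5-AS1 was at 0.0579, HNRNPU at 0.00523, TOLLIP at 0.00365 and MCM3AP-AS1 at −0.00807. Without both libraries numbered 3 FGD5-AS1 was at 0.0320, TOLLIP at 0.00376, MCM3AP-AS1 at −0.11 and HOXC-AS1 at −0.32. With the GC correction HNRNPU was at 0.10, OIP5 at −0.00499 and TMPO-AS1 at −0.00300. With each library at the same sum OIP5 was at −0.0276, PAXIP1 at −0.0393 and MCM3AP-AS1 at −0.00600. With mitochondrial rows left out as well they were at −0.0205, −0.0328 and −0.000260, and with median ratio scaling OIP5 was at −0.00174 and PAXIP1 at −0.0148. The cause was not tested. With 1 library left out, FGD5-AS1 ran from −0.0945 to 0.0541, HNRNPU from −0.0648 to 0.00509, HOXC-AS1 from −0.0393 to 0.74, MCM3AP-AS1 from −0.0487 to 0.12, OIP5 from −0.0736 to 0.0737 and PAXIP1 from −0.0220 to 0.0387.

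Of the other RNAs, HNRNPU-AS1 was at −0.0746 and ITGB2-AS1 at 0.0178 without siEHMT2 replicate 3, FOXD2-AS1 at 0.17 without siNC replicate 3 and HOXB-AS3 at 0.40 without siNC replicate 3 and 1.15 without siEHMT2 replicate 1. With array weights and without both libraries numbered 3, EXOSC6, MORC2 and PAPOLA passed. The replicate block called 0 RNAs and 0 of all rows (1845 at an unadjusted p under 0.05), and limma with no filter on low values also called 0 of all rows (3641), where array weights called 2177 higher and 1620 lower. Each replicate number has 1 library in each group, so the block leaves every fold change as it was, and no sign could turn. Same-numbered libraries deviated with correlations of −0.350, 0.0871 and −0.393, so the numbers were not treated as pairs. Between libraries of different numbers the correlations ran from −0.368 (siEHMT2 replicate 1 with siNC replicate 2) to 0.481 (siEHMT2 replicate 1 with siNC replicate 3). What the libraries share across groups was not tested. No gene name filled more than 1 row, so summing rows of 1 symbol was not run. Depth is unknown, and low FPKM limit the precision: the median SE of the 162 RNAs was 0.15, beside 0.13 over all tested rows.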

Other observations

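Antisense and LINC rows below the mean of 1 FPKM are values outside the comparison above. Of the 1217 such rows 534 were at 0 in all 6 libraries. With no filter on low values, 80 rows had a mean of 0.5 to 1 FPKM, and 56 of these were higher in siEHMT2 libraries (70.0%, median log2 fold change 0.10), beside 54.9% of all 2032 rows at that level (median 0.03). Of 211 rows from 0.1 to 0.5 FPKM 153 were higher (72.5%, median 0.07), beside 52.2% of all 5607 rows at that level. The smallest limma adjusted p of these antisense and LINC rows was 0.169.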
